A study of Drosophila melanogaster with 12 samples.

Results

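The late step of the response to oxidative stress (OS) was followed in the heads of G9a mutants, as the change between 6 h and 12 h on food with 50 mM paraquat. It rests on 4 of the 12 libraries of the series, 2 of G9a mutants at 12 h and 2 of G9a mutants at 6 h, chosen by genotype and hour from their labels. The 8 other libraries, of mutants at 0 h and of controls at 0, 6 and 12 h, in duplicate, entered the same model and served for comparison. Each library held RNA of 200 pooled heads of male flies aged 5 to 9 days. G9a mutants carried G9a DD1, an allele left by excision of a P-element, in 1 line. Controls came from the precise excision of that element in the same genetic background. All flies at 6 h and 12 h had received paraquat, so that hours of exposure and hour of the day cannot be told apart in either genotype. The study calls the duplicates biological, and p-values measure the spread between such pools.

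Paraquat is reduced inside cells and hands its electron to oxygen, which forms superoxide again and again. Flies answer with enzymes that remove superoxide and peroxides, with glutathione S-transferases under the Nrf2-type factor cnc, with heat shock proteins that hold or refold damaged proteins, and with JNK, JAK-STAT and insulin signalling. G9a (EHMT) places dimethyl marks on lysine 9 of histone H3, a mark of repressed chromatin.

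Expression is given as normalized counts, that is reads per gene divided by 1 size factor per library. Between 20716253 and 24253605 reads fell on genes in the 4 libraries, so they were close in depth. Fold changes are log2 differences of the count plus 1, and a gene was called when it changed at least 1.5-fold and its p from limma, adjusted by Benjamini and Hochberg over 10530 genes, did not exceed 0.05. Errors on log2 fold changes are SEs of that fit, with n = 2 libraries a group, and the median SE over all genes was 0.087. The fit takes 1 spread per gene over all 6 groups. A gene's SE is therefore the same for the mutant and the control step, and it includes the spread of libraries outside the step. The mutant duplicates lay 39.6 apart at 12 h and 31.3 apart at 6 h (Euclidean distance of log2 values over the tested genes), against a mean of 61.6 between 12 h and 6 h. In controls the 12 h duplicates lay 58.8 apart, more than the mean of 50.2 between 12 h and 6 h. RNAs without a poly(A) tail (140 rRNA, snRNA and 7SL genes by symbol) took 0.0174% and 0.0453% of the reads in the mutant 12 h libraries, against 0.0028% and 0.00404% at 6 h. They took 0.00305% and 0.165% in the control 12 h libraries, against 0.0636% and 0.00562% at 6 h. With their level as a covariate, 897 genes were called, 822 of them among the 961 called without it. Head markers were present at high level, such as elav, the pan-neuronal RNA-binding protein, with 7327 and 7568 counts at 12 h and 7248 and 7626 at 6 h. Gut proteases, a check for other tissue, summed to 48.7 and 60.2 counts over 28 genes at 12 h, and 47.8 and 46.0 at 6 h. G9a (FBgn0040372), counted over its whole length, had 3700.2 and 3633 at 12 h and 3519 and 3603 at 6 h in mutants, against control means of 2779.6 at 12 h and 2692 at 6 h. This count says nothing about the genotype, since reads on the parts that the allele keeps are included.

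Between 6 h and 12 h, 961 genes changed in G9a mutants, which is 9.13% of those tested. Of these, 467 were higher at 12 h (4.43% of all tested) and 494 were lower (4.69%). These shares are the background for the counts of list members called in mutants below. The median change was 0.89 on the log2 scale among the genes that rose and -0.97 among those that fell, and 410 of all called genes changed at least 2-fold. Genes that rose had a median mean of 1527 counts at 12 h and 830.1 at 6 h, whereas genes that fell had medians of 133 at 12 h and 295 at 6 h. The libraries of the 2 time points did not overlap for any called gene, but this held for 63.4% of all tested genes. The median over all tested genes was -0.001. For comparison, 361 genes (3.43%) were called in controls over the same hours (157 higher, 1.49%, and 204 lower, 1.94%) and 1395 (13.2%) in mutants between 0 h and 6 h (848 higher, 8.05%, and 547 lower, 5.19%). The step differed between mutants and controls for 552 genes (5.24%), being higher in mutants for 239 (2.27%) and lower for 313 (2.97%). In whole heads, fewer cells of a type and less RNA per cell cannot be told apart, and this applies to each change described.

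**Figure D1:**
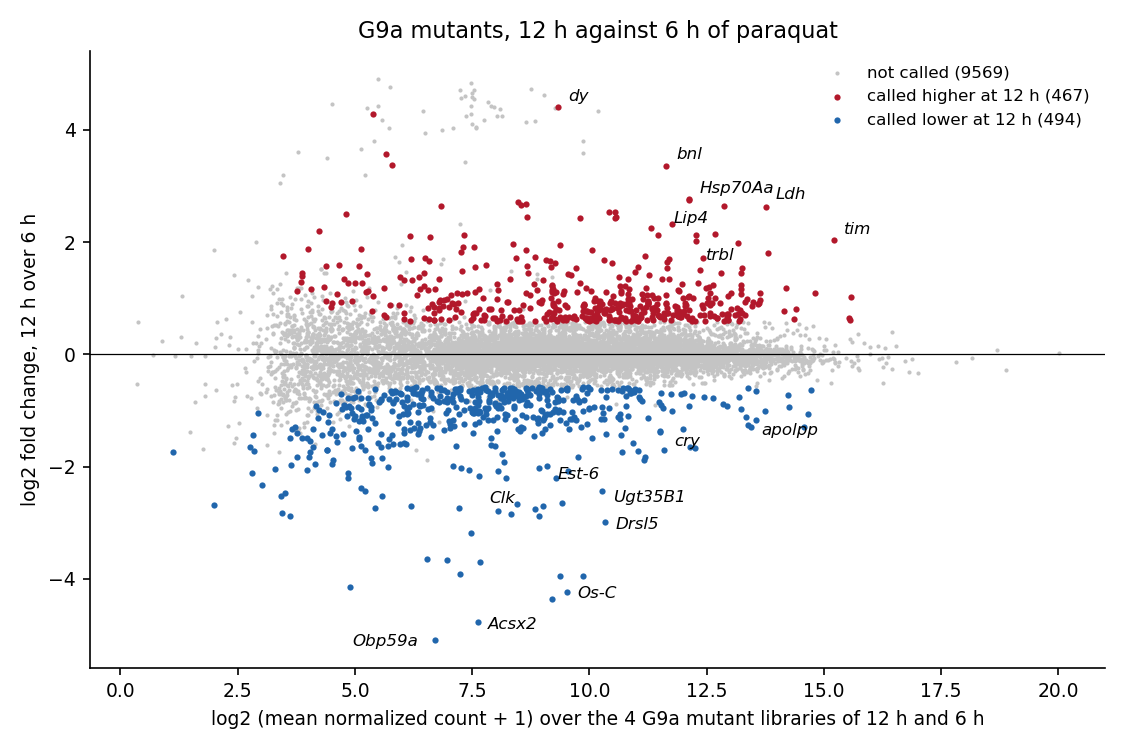
Each point is 1 of the 10530 tested genes, with its mean level in the 4 mutant libraries on the horizontal axis (log2) and its change from 6 h to 12 h on the vertical axis (log2). Red marks the 467 genes called higher and blue the 494 called lower at 12 h. The grey points near 4 without a name include rRNA copies, snRNAs and 7SL RNAs. This class had a median SE of 1.45 in the fit over all 12 libraries.

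The inducible Hsp70 genes rose together. Hsp70 proteins use ATP to refold or disaggregate unfolded proteins, and in flies their stress-inducible copies are the classical heat shock genes. Of the 8 members of the list (6 Hsp70 copies, Hsp68 and Hsp83) 7 rose, and the median of the list was 2.49. Hsp70Aa (FBgn0013275) had 5645 and 9961 counts in mutants at 12 h, against 1266 and 960.3 at 6 h. Both late libraries stood above both early ones, and they differed more from each other than the early ones did. The change was 2.76 ± 0.32 (SE), or 6.8-fold, at an adjusted p of 8.3e-05. Hsp70Ab, Hsp70Ba, Hsp70Bb, Hsp70Bbb and Hsp70Bc rose by 2.42 to 2.76. These copies are nearly identical and reads were 30 bp long, so that the values of single copies are uncertain and they count as 1 observation. Hsp68, a related gene with its own sequence, had 3110.5 and 5359.6 counts at 12 h and 930.3 and 778 at 6 h, a change of 2.26 ± 0.28 (adjusted p = 0.00013). Hsp83, the fly Hsp90, had 23220 and 28356 counts at 12 h and 21234 and 19348 at 6 h. Its change of 0.34 stayed under the fold threshold. In mutants at 0 h, Hsp70Aa stood at 1058 and 1065, close to its 6 h level, and its change from 0 h to 6 h was 0.05 ± 0.32, not called. In controls it had 1305 and 1107 counts at 12 h and 2276 and 996 at 6 h, with no call. The difference between the steps of both genotypes was 3.09 (95% interval 2.08 to 4.10, adjusted p = 0.0017).

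Small heat shock proteins, which hold unfolded proteins without ATP, did not move together. Hsp27 had 778 and 1344 counts at 12 h and 305 and 228 at 6 h, a change of 1.95 ± 0.28 (adjusted p = 0.00039). Hsp26 had 3828 and 6335 at 12 h and 1768 and 1305 at 6 h, a change of 1.70 ± 0.22 (adjusted p = 0.00015). Both rose, and both had also been called higher at 6 h than at 0 h. CG13133 and CG7409 fell, by 2.08 and 0.96 on the log2 scale, and fell in controls too (by 1.51 and 0.76). The other 5 tested members were not called, among them l(2)efl with 3815 and 3603 counts at 12 h and 4014 and 3781 at 6 h, and Hsp23 with 1013 and 1657 at 12 h and 1016 and 835 at 6 h. Hsp67Ba, Hsp67Bc and CG4461 changed by -0.27, 0.10 and -0.47. Among 18 constitutive Hsp70 proteins and co-chaperones, 3 rose and the list's median was -0.02. DnaJ-1, an Hsp40 that delivers substrates to Hsp70, had 7087 and 8822 counts at 12 h and 4014 and 3854 at 6 h (1.01 ± 0.08, adjusted p = 5e-06). Its control means were 4702 at 12 h and 4727 at 6 h. The co-chaperone stv (starvin, the fly BAG3) changed by 0.83, and Chchd2, a mitochondrial coiled-coil-helix protein, by 0.59. The call of Chchd2 sat at the fold threshold and was lost at 0.54 without 6 h replicate 2 and 0.53 without 12 h replicate 2. The heat shock factor Hsf had 2459 and 2422 counts at 12 h and 2399 and 2363 at 6 h. Of 7 subunits of the CCT chaperonin, 2 rose, CCT3 by 0.73 and CCT5 by 0.61, and the call of CCT5 was lost at 0.52 without 6 h replicate 2 and 0.51 without 12 h replicate 2. Hsp27, Hsp67Ba, Hsp68, Hsp70Ab, Hsp83, l(2)efl and CCT5 share exon positions with genes on the other strand, which the kit used cannot separate.

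**Figure D2:**
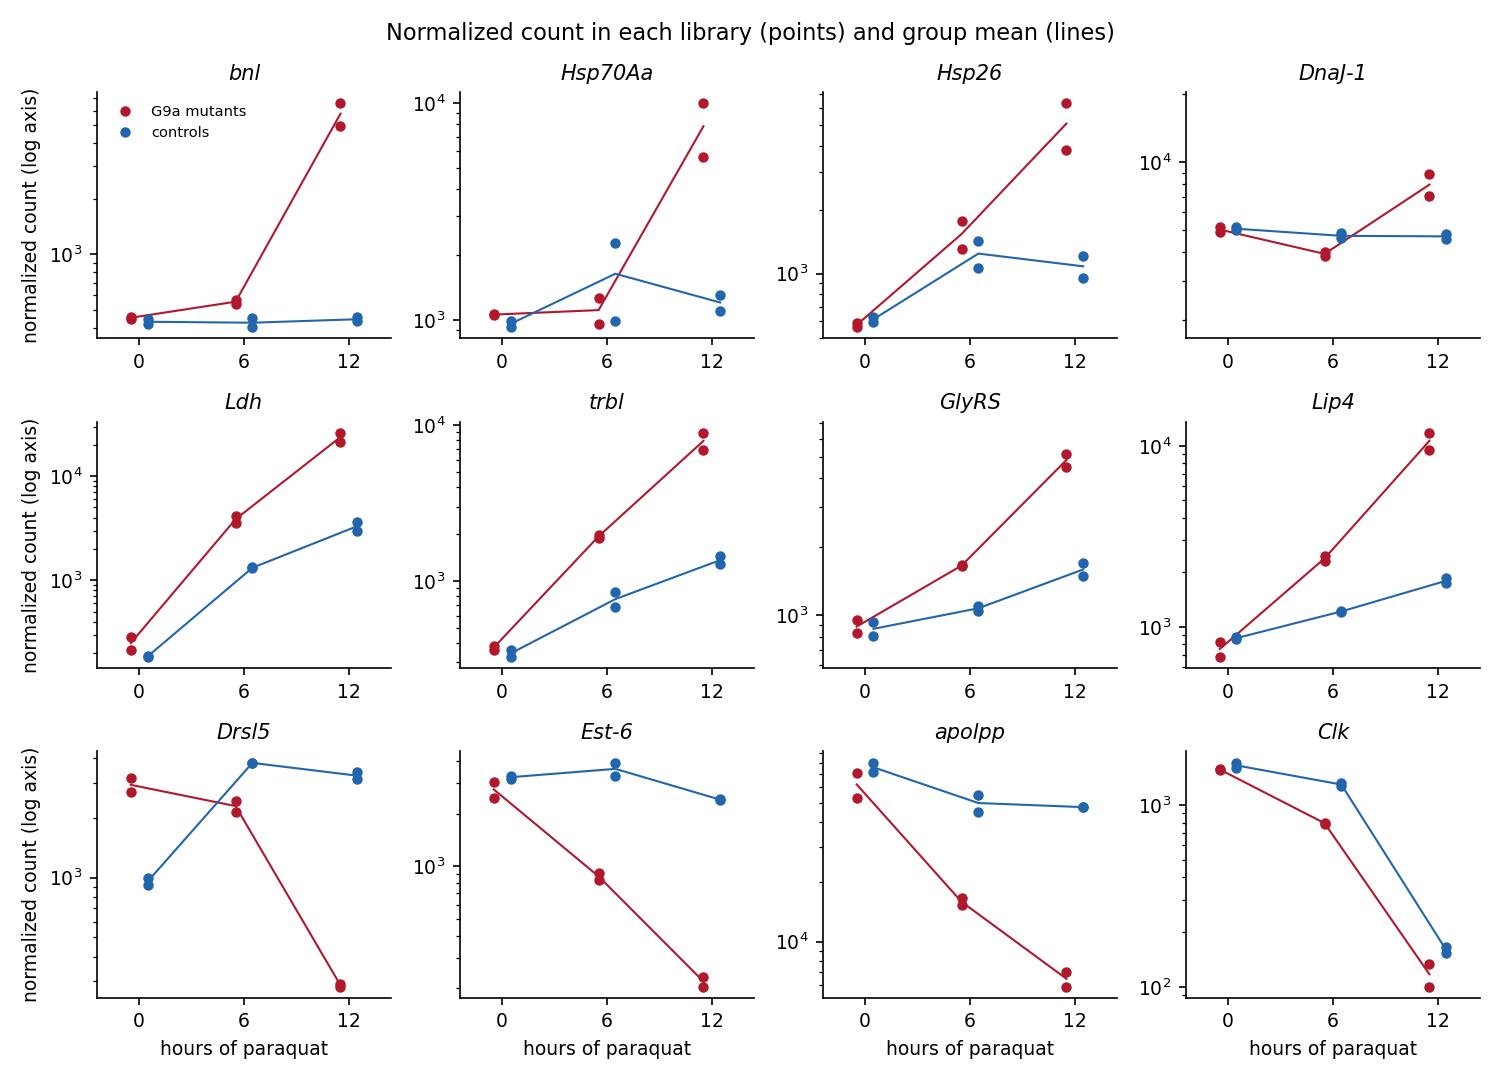
Normalized counts (log axis) of 12 genes in each library by hours of paraquat, with mutants in red, left of controls in blue, and lines through the group means. At 12 h both mutant libraries of bnl, Hsp70Aa, Hsp26 and DnaJ-1 lay above every control library, and those of Drsl5, Est-6 and apolpp lay below every control library.

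Among the 12 largest rises was that of bnl (FBgn0014135), the FGF ligand that guides tracheal branches to tissue short of oxygen. It had 458 and 449 counts at 0 h, 569 and 539 at 6 h and 4971 and 6588 at 12 h in mutants. The early libraries of mutants were alike, and both late ones stood far above them. The step was 3.37 ± 0.11, or 10.3-fold (adjusted p = 1.4e-08). In controls bnl had 433 and 458 counts at 12 h and 449.6 and 403 at 6 h, and the difference between the steps was 3.30 (95% interval 2.96 to 3.65, adjusted p = 1.2e-06). The 6 other tested genes of the hypoxia response were not called. Ldh, lactate dehydrogenase, had 215 and 281 counts at 0 h, 4155 and 3568 at 6 h and 21512 and 26061 at 12 h, so that it was higher at each later time. Its step was 2.62 ± 0.13 (adjusted p = 1.8e-07), against 1.32 ± 0.13 in controls. Of 22 genes of glycolysis and its neighbours 6 rose and 1 fell (4.43% and 4.69% of all tested genes did), with a list median of 0.02. Pepck1, a gluconeogenic enzyme, had 56691 and 73978 counts at 12 h and 32896 and 31209 at 6 h (1.02). Gapdh2 had 26271 and 28520 at 12 h and 16021 and 15421 at 6 h (0.80), and Pfk, phosphofructokinase, 11330 and 11701 at 12 h and 7692 and 7166 at 6 h (0.63). The calls of Pfk and of the other rises, Pepck2 (0.61) and Pfrx (0.60), lay near the fold threshold. Pfk was lost at 0.58 without 6 h replicate 2, Pepck2 at 0.44 without 6 h replicate 1 and 0.56 without 12 h replicate 2, and Pfrx at 0.57 without 12 h replicate 1. Hex-C, a hexokinase, fell to 624 and 736 counts at 12 h, against 1190.5 and 1201 at 6 h. Eno, enolase, was not called, with 23935 and 25428 counts at 12 h and 22878 and 21707 at 6 h. Subunits of the mitochondrial respiratory complexes, 75 tested, had a median of -0.25 in mutants and -0.19 in controls with 1 fall each, that of the same gene, COX7AL2 (-0.92 and -0.62).

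Genes of lipid storage and mobilisation went both ways. Lip4, a lipase, had 9531 and 11789 counts at 12 h, against 2475 and 2300.2 at 6 h (2.15 ± 0.10, adjusted p = 1.1e-07). Dgat2, which makes triglyceride, had 57.6 and 97.2 at 0 h, 1646 and 1482 at 6 h and 4573 and 5209 at 12 h, a step of 1.64 ± 0.19 on top of a change from 0 h to 6 h of 4.36. The lipid droplet protein Lsd-2 and the triglyceride lipase bmm (brummer) rose by 0.98 and 0.92. In each of these 4 genes the step differed from that of controls, by 0.65 to 1.59. The lipoprotein precursor apolpp had 53087 and 71083 counts at 0 h, 16497 and 15232 at 6 h and 5917 and 7048 at 12 h. Its step was -1.30 ± 0.13 in mutants and -0.06 ± 0.13 in controls. mdy, the other diacylglycerol acyltransferase, fell by 0.86 in mutants and by 0.81 in controls. Over all 25 genes of lipid storage, 4 rose and 2 fell, and the median was 0.04. ACC, the entry to fatty acid synthesis, had 5495 and 5379 at 12 h and 5396 and 5315 at 6 h. Of 36 genes that the study lists for fatty acid beta oxidation 5 rose and 2 fell. This list, like those of triglyceride synthesis, the proteasome and DNA repair, was used by the study on these same samples, so its counts are not independent evidence of a direction. The largest rise was that of Hmgs, which makes HMG-CoA, with 6977 and 8594 counts at 12 h and 2815 and 2642 at 6 h (1.51). CG3902, a member of that list, fell by 0.69. Of the 19 genes that the study lists for triglyceride synthesis 1 rose, mino (0.91), and 2 fell, mdy and CG11437, and the call of CG11437 was lost at -1.43 without 6 h replicate 1, -1.56 without 6 h replicate 2 and -0.92 without 12 h replicate 1.

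Of 25 insulin and FOXO genes 3 rose (ImpL2, Thor and Sesn) and 2 fell (Ilp5 and Sdr). ImpL2, a secreted protein that binds insulin-like peptides, had 19196 and 25248 counts at 12 h and 6460.3 and 6066 at 6 h, a change of 1.81 ± 0.11 (adjusted p = 8.3e-07). Its control means were 6673 at 12 h and 3713 at 6 h, and the difference between the steps was 0.97. Thor, the translational repressor 4E-BP, had 25531 and 26307 at 12 h and 11712 and 11193 at 6 h (1.18). Sesn, sestrin, changed by 0.69. Ilp5, an insulin-like peptide of brain neurons, fell to 221 and 185 counts at 12 h, against 333 and 359 at 6 h, and Sdr, a secreted decoy of the insulin receptor, to 352 and 380.2 at 12 h, against 624 and 573 at 6 h. foxo had 1231 and 1348 at 12 h and 1274 and 1294 at 6 h.

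Most aminoacyl-tRNA synthetases, which charge tRNAs with amino acids, rose. Of 19 tested, 11 rose in mutants (4.43% of all tested genes did), none fell, and the median was 0.77. In controls 1 was called (3.43% of all tested genes were), and the median was 0.22. GlyRS had 4510.5 and 5143 counts at 12 h and 1658 and 1639 at 6 h, the largest change of the class (1.55 ± 0.09, adjusted p = 8.3e-07). AsnRS had 9778 and 11315 at 12 h and 3996 and 3694 at 6 h (1.45 ± 0.10), and AspRS 12472 and 14661 at 12 h and 6019 and 5491 at 6 h (1.23 ± 0.08). The early and late libraries were far apart for all 3. The 8 others that rose did so by 0.68 (CysRS) to 1.14 (GluProRS). For 7 of the 19 the step was larger in mutants than in controls past the thresholds (2.27% of all tested genes), GlyRS by 0.98 (adjusted p = 0.0011). Genes of the unfolded protein response and of eIF2 kinase signalling had a median of 0.09, with 7 rises among 35. trbl (tribbles), a pseudokinase, had 385 and 363 counts at 0 h, 1981 and 1888 at 6 h and 6938 and 8924 at 12 h, and its step was 2.02 ± 0.12 in mutants and 0.84 ± 0.12 in controls. Sil1, a nucleotide exchange factor of the ER, had 2922 and 3630.4 at 12 h and 1437 and 1415 at 6 h (1.19). eIF2beta, Ire1, Nmdmc and Gadd45 rose by 0.92, 0.74, 0.65 and 0.69, and Thor, given above, is the seventh. The call of Nmdmc was lost at 0.49 without 12 h replicate 2 and that of Gadd45 at 0.57 without 6 h replicate 2. Xbp1, the factor that Ire1 activates by splicing, had 16748 and 19103 at 12 h and 15226 and 14152 at 6 h, and crc, the fly ATF4, 29133 and 30800 at 12 h and 32807 and 31751 at 6 h, and neither was called. Of 44 translation factors 4 rose, which were eIF2beta, eIF2Balpha (0.88) and eIF2Bdelta (0.79), parts of the eIF2 cycle, and eIF2D (0.68). Exons of each of these 4 are overlapped by a gene on the other strand, as are those of AspRS, GluProRS, CysRS, Ire1 and Nmdmc.

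No ribosomal protein gene was called at this step. Proteasome genes were called lower about as often as all tested genes, 3.85% against 4.69%. None of 80 cytosolic ribosomal proteins was called, and their changes lay between -0.13 and 0.30. Among the 52 genes that the study lists for the proteasome none rose and 2 fell, the testis-enriched base subunit Rpt4R by 0.65 and the cell death gene rpr (reaper), which the list of the study includes, by 0.59. The call of Rpt4R was lost at -0.52 without 12 h replicate 2, and that of rpr at -0.56 without 6 h replicate 1, -0.61 without 6 h replicate 2 and -0.42 without 12 h replicate 1. The median of the list was 0.13 at this step, against 1.14 from 0 h to 6 h, where 40 of the 52 were called higher (8.05% of all tested). Both values use the 6 h libraries. Of 24 autophagy genes 1 rose, Atg18b, by 0.74, which is near the share of all tested genes (4.43%). The gene ref(2)P, the fly p62, had 34658 and 38824 counts at 12 h and 31766 and 29068 at 6 h without a call.

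**Figure D3:**
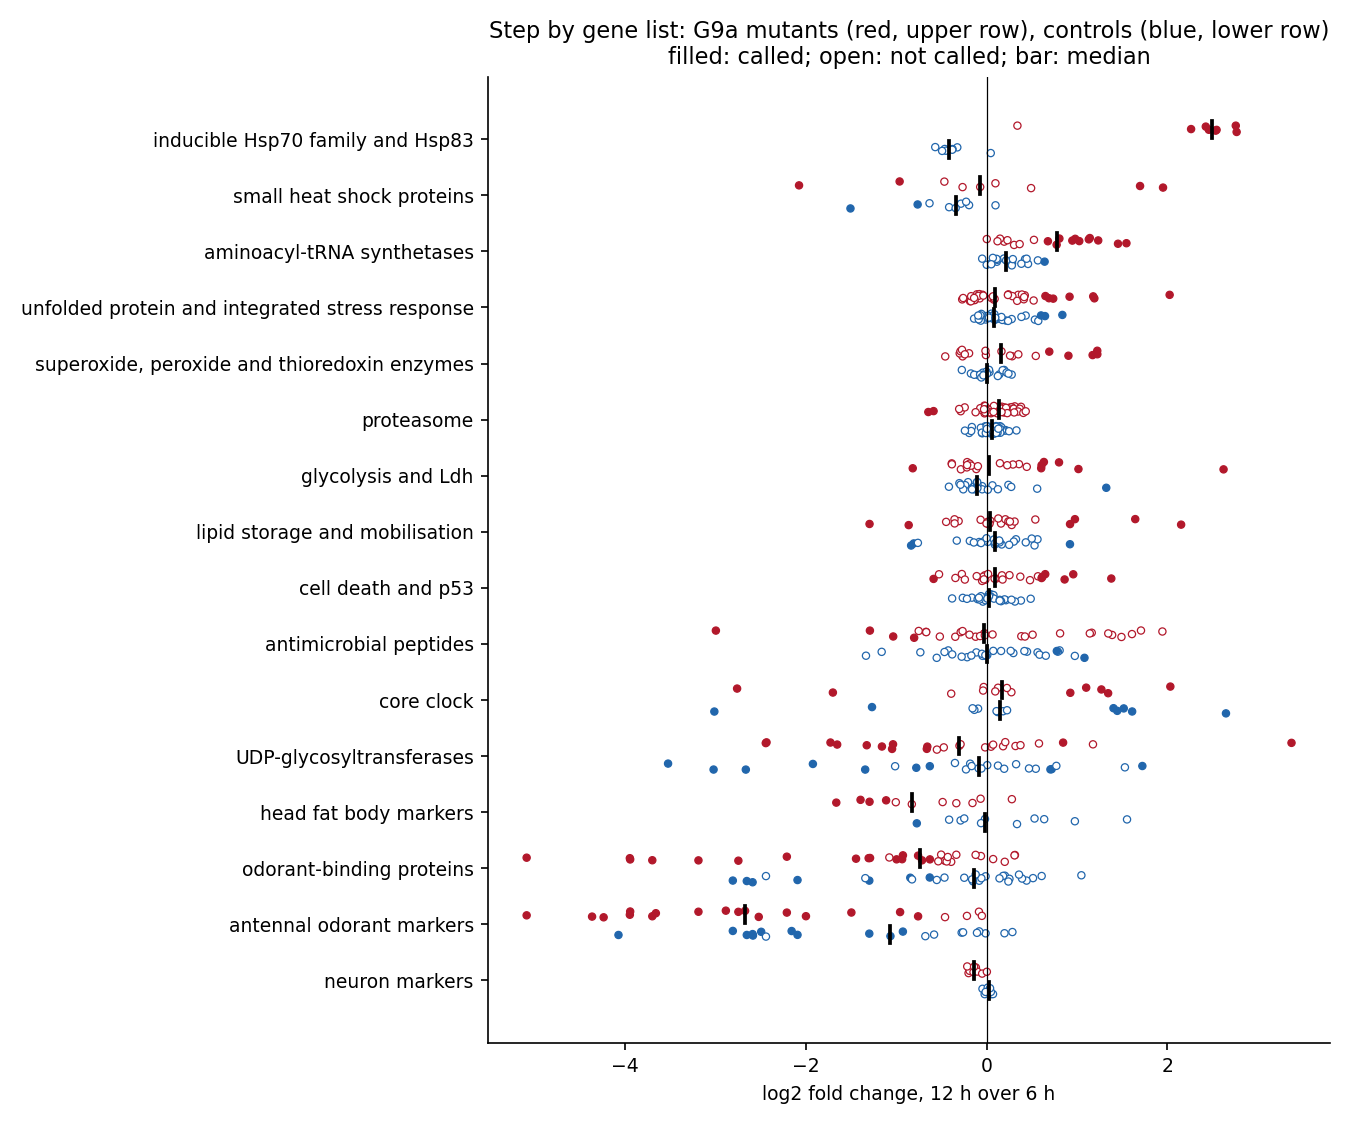
Each point is a member of a list, placed by its log2 change from 6 h to 12 h, in G9a mutants (red, upper row) and in controls (blue, lower row). Filled points were called, open ones were not, and black bars are list medians, such as 2.49 and -0.42 for the Hsp70 list and -2.67 and -1.06 for antennal odorant markers.

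Enzymes that remove superoxide and peroxides rose in part. Of 19 tested 5 were higher at 12 h, none was lower, and the median was 0.16. Prx6b, a peroxiredoxin, had 201 and 289 counts at 0 h, 1123 and 1134 at 6 h and 2221 and 2911 at 12 h, a step of 1.17 ± 0.17 (adjusted p = 0.00034). Prx6c and CG12896, copies close in sequence to it, changed by 1.22 and 1.22, so that the 3 may share reads. Cat, catalase, had 15242 and 17144 at 12 h and 8890.3 and 8388 at 6 h (0.90 ± 0.08, adjusted p = 1e-05), against 0.19 ± 0.08 in controls. The superoxide dismutases were not called. Sod1, in the cytosol, had 5521 and 5696 counts at 12 h and 7086 and 6709 at 6 h, and Sod2, in mitochondria, 2376 and 2159 at 12 h and 2768 and 2768 at 6 h. Glutathione S-transferases, which conjugate glutathione to electrophiles, went both ways. GstD2 had 67.3 and 112 at 0 h, 6054 and 5902 at 6 h and 12820 and 13889 at 12 h. Its step of 1.16 ± 0.17 was close to the 1.11 ± 0.17 of controls (difference 0.05, 95% interval -0.48 to 0.58). GstD1, the most abundant of them, had 30855 and 36671 at 12 h and 28888 and 25975 at 6 h, not called. In the delta class 2 of 10 rose and 2 fell, and in the epsilon class 4 of 13 rose and 3 fell. GstE1 had 10924 and 14174 counts at 12 h and 8264 and 7152 at 6 h in mutants, against 884 and 724 at 12 h and 1249 and 1268 at 6 h in controls. It rose by 0.69 in mutants and fell by 0.65 in controls, both past the thresholds, and its level was higher in mutants at both hours. The call in mutants was lost at 0.51 without 12 h replicate 2. GstE11 rose by 1.15, more than in controls by 0.94. GstE4, a less abundant member, fell to 61.7 and 81.8 counts at 12 h, against 372 and 279 at 6 h (-2.17 ± 0.22). Of 17 genes around cnc, Keap1 and glutathione synthesis 4 rose, among them the glutamate-cysteine ligase modifier Gclm (0.71) and the transporter Mrp4 (0.87). cnc itself had 7397 and 8214 at 12 h and 6424 and 6077 at 6 h.

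Cytochrome P450s and UDP-glycosyltransferases, which modify foreign compounds and hormones, went both ways. Of 75 cytochrome P450 genes 10 rose and 12 fell (4.43% and 4.69% of all tested genes did), with a median of -0.11. Cyp6w1 fell to 815 and 1255 counts at 12 h, against 3734 and 3453 at 6 h (-1.83 ± 0.18, adjusted p = 2.4e-05), while control means were 10116 at 12 h and 8279 at 6 h. Cyp6g1, known for insecticide resistance, fell to 892 and 1108 at 12 h, against 2280.4 and 2131 at 6 h (-1.15). Cyp18a1, which inactivates ecdysone, rose by 1.58, and Cyp4ac3 by 1.41. Cyp28a5 rose by 1.16 in mutants (means of 123 at 6 h and 274 at 12 h) and by 1.16 in controls, from a higher level (2670 and 5974). Cyp12c1 fell by 1.34, against -0.25 in controls. Of 25 UDP-glycosyltransferases 2 rose and 10 fell, and the median was -0.30. Several of these fell in both genotypes. Ugt35B1 fell to 378 and 389.9 counts, against 2119.5 and 2063 at 6 h (-2.44 ± 0.10), and it fell in controls too (by 1.92). Ugt49C1 fell to 2069 and 2297 at 12 h, against 6771 and 6949 at 6 h (-1.65 ± 0.07). Ugt37E1, in contrast, had 95.2 and 103 counts at 12 h and 10.1 and 7.49 at 6 h (3.37 ± 0.34). Its control step was 1.72.

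Stress signalling genes with a rise included ligands, regulators and effectors. upd3, the JAK-STAT cytokine, had 3.24 and 3.60 counts at 0 h, 74.2 and 58.8 at 6 h and 216 and 258 at 12 h, against control means of 16.0 at 12 h and 16.3 at 6 h. Its step was 1.82 ± 0.47 (adjusted p = 0.014), a call lost at 1.66 without 6 h replicate 2, 1.95 without 12 h replicate 1 and 1.70 without 12 h replicate 2 (adjusted p = 0.093, 0.051 and 0.097). Socs36E, the feedback inhibitor of the pathway, had 7560.4 and 8402 at 12 h and 3507 and 3483 at 6 h (1.19 ± 0.07, adjusted p = 3.6e-07), and its step was larger than in controls by 1.01. Of 16 Turandot and JAK-STAT genes 5 rose and 3 fell, and the falls were in Turandot genes, humoral stress proteins that the pathway can induce. TotA had 373 and 866 counts at 12 h and 1395 and 1306 at 6 h, TotC 30.3 and 124 at 12 h and 324 and 209.6 at 6 h, and TotX 60.6 and 95.1 at 12 h and 207 and 148 at 6 h. All 3 were called lower, with changes of -1.25, -2.07 and -1.19. Control means were higher, at 9229, 4042 and 1279 at 6 h and 9471, 4818 and 763 at 12 h, without a call. The call of TotA was lost at -1.20 without 6 h replicate 1, -1.29 without 6 h replicate 2 and -0.64 without 12 h replicate 1, and that of TotC at -1.75 without 6 h replicate 1 and -1.07 without 12 h replicate 1. Among 26 JNK pathway genes and targets 4 rose and 1 fell (4.43% and 4.69% of all tested genes did). The fall was that of rpr, counted already in the proteasome list, where the loss of its call is described. Ets21C, an ETS factor, had 37.6 and 41.0 at 0 h, 1066 and 974 at 6 h and 2450.5 and 2747 at 12 h (1.35 ± 0.17), and the JNK phosphatase puc rose by 0.68, a call lost at 0.56 without 12 h replicate 2. nAChRbeta3, a nicotinic receptor subunit, had 467 and 581 at 12 h and 148 and 119 at 6 h (1.97 ± 0.25). Its exons overlap those of Ets21C on the other strand, so its counts may include reads of Ets21C. How such reads were counted was not examined. The other 8 nicotinic subunits were not called.

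Of 27 genes of cell death and p53 6 rose and 1 fell (4.43% and 4.69% of all tested genes did). The fall was again that of rpr, the same call as in the proteasome and JNK lists. The caspase Strica had 108 and 126 counts at 12 h and 54.1 and 36.4 at 6 h (1.38 ± 0.19, adjusted p = 0.00023), against control means of 168 at 12 h and 219 at 6 h. p53 had 724 and 841 at 12 h and 412 and 446 at 6 h (0.86), and Irbp (Ku70) 1452 and 1709 at 12 h and 845 and 777 at 6 h (0.96). Among the 102 genes that the study lists for DNA repair 8 rose and 1 fell, and the median was 0.11. RfC4, a clamp loader subunit, rose by 1.09, XRCC1 by 0.82 and Ku80 by 0.65. The fall was that of cry, which the list holds as a relative of photolyases and which is a clock gene. Of 30 antimicrobial peptide genes 4 fell and none was called higher, and the median was -0.03. The 36 genes of the list in the table summed to 25286.5 and 42196.5 counts at 12 h, against 34876 and 31797.9 at 6 h, so the list as a whole did not fall. Drsl5, a Drosomycin-like peptide, had 2694 and 3186 counts at 0 h, 2440.1 and 2155 at 6 h and 282 and 291 at 12 h, with replicates close together at each time. Its step was -2.99 ± 0.08 (adjusted p = 7.7e-09), against -0.22 ± 0.08 in controls. BomS6 had 414 and 646 at 12 h and 1321 and 1217 at 6 h (-1.29). Dso1 fell by 1.03 and Drsl4 by 0.80. The call of Dso1 was lost at -0.83 without 6 h replicate 1 and -0.46 without 12 h replicate 1, and that of Drsl4 at -0.57 without 6 h replicate 1 and -0.55 without 12 h replicate 1. The recognition protein GNBP3 fell by 1.02, and NimC1, a phagocytosis receptor of hemocytes, rose to 232 and 286 counts at 12 h, against 70.4 and 48.1 at 6 h, while 11 of 13 hemocyte markers were not called. The metallothioneins MtnD and MtnE, which bind copper and other metals, fell by 1.77 and 1.61 in mutants and by 1.19 and 1.73 in controls. The call of MtnE in mutants was lost at -1.58 without 6 h replicate 1, -1.63 without 6 h replicate 2 and -0.88 without 12 h replicate 1. MtnA, an abundant member of the family, had 18597 and 21410 counts at 12 h and 20593 and 19420 at 6 h and was not called. MTF-1, the metal-responsive factor, rose by 0.90. The metal transporter Mvl rose by 0.86.

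Of the 12 largest falls 8 were on the list of antennal odorant markers. Of 21 antennal odorant markers 17 fell, against 4.69% of all tested genes, and the median was -2.67. Like the other lists, it was chosen with earlier results of these data known, so this share is a description only. Acsx2, of the acyl-CoA synthetase family and not on that list, fell to 15.1 and 10.8 counts at 12 h, against 368 and 387 at 6 h (-4.78 ± 0.23, adjusted p = 1.4e-07). Os-C, an olfactory-specific secreted protein, fell to 51.9 and 102 at 12 h, against 1324 and 1465 at 6 h (-4.24 ± 0.32). Both were at least 18.8-fold lower on the scale of the count plus 1, and the late libraries stood far below the early ones. The antennal proteins a10 and a5 fell in the same way. a10 had 36.8 and 77.0 at 12 h and 1105 and 1129 at 6 h (-4.36), and a5 13 and 22.9 at 12 h and 209.9 and 251 at 6 h (-3.66). Among odorant-binding proteins, which carry odorants through the sensillum lymph, 16 of 30 fell and none rose. Obp59a had 1.08 and 15.6 at 12 h and 197 and 201 at 6 h (-5.09 ± 0.81), with 1 late library near 0. Obp83a, Obp83b and Obp19a fell too, with changes of -3.94, -3.95 and -3.70. lush, which is needed to detect the male pheromone cis-vaccenyl acetate, had 30.3 and 38.5 at 12 h and 292 and 349.7 at 6 h (-3.19 ± 0.19). Obp28a had 82.2 and 128 at 12 h and 579.5 and 394 at 6 h (-2.21). Orco, the obligate co-receptor of odorant receptors, had 111 and 135 at 12 h and 405 and 298 at 6 h (-1.50 ± 0.15, adjusted p = 2.1e-05). Of 58 tested odorant, ionotropic and gustatory receptors 6 fell and 2 rose. Ir75a, an ionotropic receptor for acids, had 6.49 and 12.0 counts at 12 h and 31.4 and 31.0 at 6 h (-1.71), and its control step was -2.09. Or59c fell by 1.71 in mutants and changed by 0.69 in controls, a difference of -2.40. AOX4, an aldehyde oxidase, and CG10357 were among the 12 largest falls as well (-3.64 and -3.91), and so was Sfp84E (-4.15), whose exons lie over those of Os-C on the other strand and whose reads may be those of Os-C.

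The summed level of the 24 antennal markers in the table was 29061 and 28614 in mutants at 0 h, 22580 and 22324 at 6 h, and 8544 and 8600 at 12 h. In controls the sums were 16633 and 14674 at 0 h, 28374 and 26483 at 6 h, and 20780 and 20822 at 12 h. The sum was thus lower at 12 h than at 6 h in both genotypes, while from 0 h to 6 h it was higher in controls and lower in mutants. In controls 11 of the 21 markers fell between 6 h and 12 h (1.94% of all tested genes did), with a median of -1.06. Some genes fell in both genotypes (Os-C by 4.24 in mutants and 2.58 in controls), and others were called in mutants alone. In controls Os-C had 166 and 86.1 counts at 0 h, 1211 and 892 at 6 h and 152 and 196 at 12 h. Its control fall thus ended near the 0 h level. In mutants Os-C had 1677 and 1543 counts at 0 h, and its fall ended far below that level. The amount of antennal tissue in each pool was not tested. For Obp28a, Antdh and Orco the steps of controls were -0.08, -0.28 and -0.11, and the difference between genotypes passed the thresholds for each (Antdh by -2.40, adjusted p = 3.3e-05). All 24 markers had reads at 12 h in mutants. Chordotonal and motile cilia genes, expressed in Johnston's organ of the antenna, had 5 falls and 1 rise among 15, with Dnai2 at -2.11 and Dhc93AB at -1.83. Their sum was 2172 and 1940 at 12 h, against 3247 and 3270 at 6 h.

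**Figure D4:**
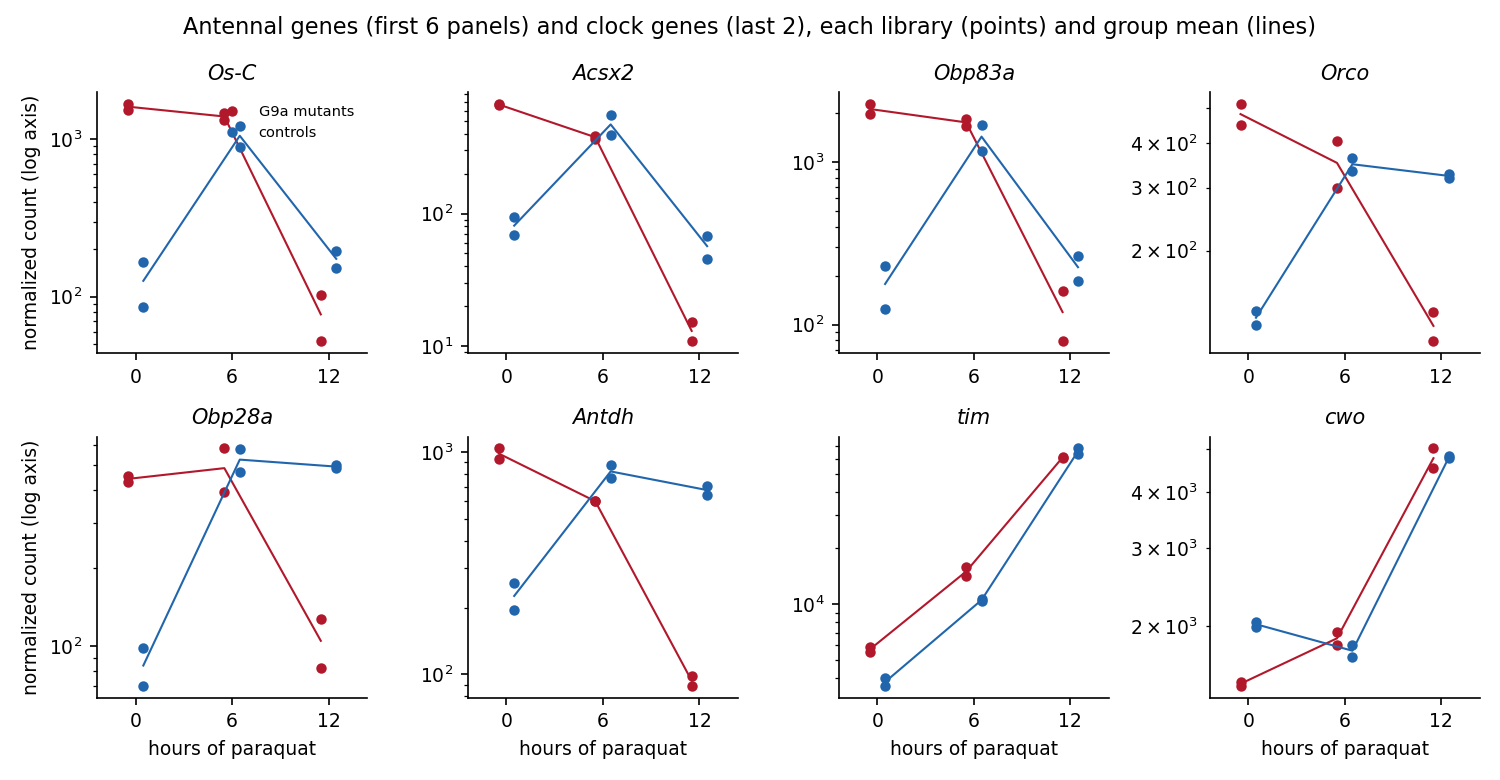
Normalized counts (log axis) of Os-C, Acsx2, Obp83a, Orco, Obp28a, Antdh and the clock genes tim and cwo in each library by hours of paraquat, with mutants in red, left of controls in blue, and lines through the means. Os-C, Acsx2 and Obp83a fell between 6 h and 12 h in both genotypes, Orco, Obp28a and Antdh were called lower in mutants alone, and tim and cwo rose in both.

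Est-6, an esterase of antennae and hemolymph, had 2466 and 3069.5 counts at 0 h, 921 and 833 at 6 h and 204 and 233 at 12 h (-2.0 ± 0.11, adjusted p = 3.4e-07). Of 22 genes of ecdysone and juvenile hormone response none rose and 4 fell (4.69% of all tested genes did), which were the esterases Jhe and Jhedup and the juvenile hormone epoxide hydrolases Jheh1 and Jheh2. Jhedup, which is also on the antennal list, had 103 and 129 at 12 h and 904 and 811 at 6 h (-2.88). The epoxide hydrolase Jheh1 fell to 867 and 1116 counts at 12 h, against 2434 and 2481 at 6 h, Jheh2 to 1162 and 1141, against 2512 and 2401 at 6 h, and the esterase Jhe to 10.8 and 12.0, against 28.9 and 19.2 at 6 h. The call of Jhe was lost at -0.71 without 6 h replicate 1 and -0.92 without 12 h replicate 1, and its step in controls was -2.71. Head fat body markers fell in 4 of 11 cases and rose in none, with a median of -0.83 in mutants and -0.02 in controls. The 13 markers in the table summed to 19925 and 23503 counts in mutants at 12 h, against 39614 and 36545 at 6 h, and to 82639 and 84795 in controls at 12 h, against 83294 and 104306 at 6 h. None was at 0 in the mutant libraries. Lsp2, a larval serum protein kept in adult fat body, fell to 2073 and 2610.0 at 12 h, against 7549 and 7192 at 6 h (-1.66 ± 0.16). to (takeout) had 199 and 351 at 12 h and 988 and 492 at 6 h, and Miox 519 and 505 at 12 h and 1167 and 1053 at 6 h. Of 30 cuticular proteins 8 fell, among them Cpr47Ef (by 1.34) and Cpr65Au (by 1.11), and 1 rose, Cpr66D, by 1.22. Muscle markers had 5 falls among 19, with a list median of -0.33 in mutants and -0.32 in controls. The largest call was TpnC41C (-0.78), lost at -0.50 without 6 h replicate 1 and -0.53 without 12 h replicate 2. Their sum was 126677 and 120137 at 12 h, against 164080 and 142097 at 6 h. The part of fat body, muscle and antennal tissue in the changes of other genes was not tested.

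Lists of neuronal and glial genes are read beside the 9.13% of all tested genes that were called. None of 9 neuron markers and none of 29 synaptic genes was called, and the synaptic list had a median of -0.10 with changes between -0.29 and 0.09. None of 10 photoreceptor markers was called. The 9 neuron markers summed to 189532 and 186878 counts at 12 h, against 199824 and 209056 at 6 h. Of 31 phototransduction genes 2 fell, cry and inaC, the eye protein kinase C (13829 and 12967 at 12 h, against 25485 and 25932 at 6 h). The phospholipase norpA had 84889 and 82291 at 12 h and 75987 and 79423 at 6 h. Among 12 glia markers wrapper fell to 483 and 491 counts at 12 h, against 1079.9 and 1091 at 6 h, nrv2 fell by 0.76 and Gli rose by 0.82, while repo, the glial homeobox factor, had 866 and 852 at 12 h and 1168 and 1013 at 6 h without a call. Of 31 neuropeptides 1 rose, CNMa (0.79), a call lost at 0.44 without 6 h replicate 2, 0.78 without 12 h replicate 1 and 0.80 without 12 h replicate 2, and 1 fell, Nplp3 (-0.92). Of 15 activity-regulated genes 2 rose, among them hry, a transcriptional repressor, by 0.91. Of 13 genes of H3K9 methylation 1 rose, Su(var)3-9, with 226 and 227 at 12 h and 146 and 128 at 6 h, and it shares exons with eIF2gamma on the same strand.

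Core clock genes, whose levels follow the hour of the day, changed in both genotypes. Of 14 clock genes 5 rose and 2 fell in mutants, and the same 7 were called in the same direction in controls. tim had 61649 and 60309 counts at 12 h and 15724 and 14142 at 6 h in mutants, against 63503 and 68140 at 12 h and 10682 and 10327 at 6 h in controls. per, cwo, Pdp1 and vri rose by 1.27, 1.34, 1.10 and 0.93 in mutants, and by 1.40, 1.44, 1.52 and 1.61 in controls. Clk, the activator, fell to 101 and 135 counts at 12 h, against 791 and 799 at 6 h, and cry fell to 1502 and 1409 at 12 h, against 4732 and 4731 at 6 h. The step was smaller in mutants past the thresholds for tim (difference -0.62, adjusted p = 0.0019) and vri (-0.68, adjusted p = 0.00051). For Clk, per and cwo the difference was not called, with 95% intervals of -0.09 to 0.59, -0.32 to 0.05 and -0.28 to 0.08. cyc, which does not cycle, had 811 and 836 at 12 h and 838 and 854 at 6 h.

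Outside the lists, the largest rise among called genes with a mean of at least 50 counts in the higher group was that of dy (dusky), a zona pellucida domain protein of the cell surface. It had 1190.1 and 1250.2 counts at 12 h and 67.9 and 47.1 at 6 h in mutants, a change of 4.41 ± 0.16 (adjusted p = 2.9e-08), against 548 and 537 at 12 h and 57.0 and 59.6 at 6 h in controls (3.20 ± 0.16). The zona pellucida domain protein cyr (cypher) had 596 and 633 at 12 h and 94.3 and 90.9 at 6 h (2.72 ± 0.29), against control means of 79.6 at 12 h and 51.9 at 6 h. Tsp42Er, a tetraspanin, had 651 and 732 at 12 h and 93.0 and 123 at 6 h (2.68 ± 0.21), and the transporter MFS3 644 and 632 at 12 h and 93.0 and 108 at 6 h (2.66 ± 0.11). CG5958 had 10960 and 14803 at 12 h and 2097 and 1976 at 6 h (2.64 ± 0.19). CG9875 and CG13215 rose by 3.57 ± 0.64 and 2.65 ± 0.53. The small nuclear RNA snRNA:U1:95Cb had 38.9 and 118 counts at 12 h and 5.03 and 1.07 at 6 h (4.29 ± 1.41), and its level moved with those of the other RNAs without a poly(A) tail. With their level as a covariate its change was 1.72 and its call was lost (adjusted p = 0.17), as it was without each of the 4 libraries in turn (5.06 without 6 h replicate 1, 3.52 without 6 h replicate 2, 5.07 without 12 h replicate 1 and 3.50 without 12 h replicate 2).

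The control step, called for 361 genes, shares no library with the mutant step. Its count fell to 238 without the control 6 h replicate 1 and to 232 without the control 12 h replicate 1. Of the 467 genes that rose in mutants 81 rose in controls as well, which is 17.3% of the mutant list and 51.6% of the control list. Of the 494 that fell 124 fell in controls, 25.1% of the mutant and 60.8% of the control list. Of all tested genes 1.49% rose and 1.94% fell in controls, and 4.43% rose and 4.69% fell in mutants. Across all tested genes the 2 steps had a Pearson's r of 0.40 and a Spearman's rho of 0.34, as a description over genes. Genes that rose in mutants had a median change of 0.89 in mutants and 0.26 in controls, and genes that fell -0.97 in mutants and -0.27 in controls. These genes were picked by their change in mutants, which by itself makes the mutant medians larger, so the medians do not compare the genotypes. In all, 7 genes were called in opposite directions. GstE1, Dip-B and Cpr66D rose in mutants and fell in controls, and Cyp4d21, Nep7, CG16926 and CG30033 fell in mutants and rose in controls (named after their values had been seen). Dip-B, a dipeptidase, changed by 1.00 in mutants and -0.71 in controls. Cyp4d21, a P450 biased to males, had 428 and 325 counts at 12 h and 719 and 481 at 6 h in mutants, a call lost at -0.37 without 6 h replicate 1 and -0.46 without 12 h replicate 2, and changed by 1.41 in controls.

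By the test of the interaction, the step itself differed between genotypes for 552 genes. Of the 239 with a higher step in mutants 175 were called in the mutant step alone, and of the 313 with a lower step 183. Of the 467 mutant rises 191 had a difference in the same direction and of the 494 mutant falls 210, which is 40.9% and 42.5%. These counts use the same mutant libraries as the step. The largest positive differences among called genes with a mean of at least 50 counts over the 12 libraries were those of bnl and of 5 Hsp70 copies. These 5 share reads, and the difference ranged from 2.92 (Hsp70Bbb) to 3.30 (bnl). The largest negative ones among the same were Drsl5 (-2.78, adjusted p = 8.1e-07), Diedel (-2.65), Antdh (-2.40), CG40198 (-2.20), GstE4 (-2.16) and Obp28a (-2.13). Diedel, a secreted regulator of immune signalling, had 15.1 and 28.9 counts at 12 h and 81.7 and 51.3 at 6 h in mutants, against control means of 125 at 12 h and 54.5 at 6 h. Its change in mutants and its difference were each lost in many alternative fits, the difference at values between -2.98 and -2.07 when 1 library was left out (the control 6 h replicate 1, the control 6 h replicate 2, the control 12 h replicate 1, the mutant 6 h replicate 1, the mutant 6 h replicate 2 and the mutant 12 h replicate 1). The difference of CG40198 was lost at -1.81 without the mutant 6 h replicate 1.

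**Figure D5:**
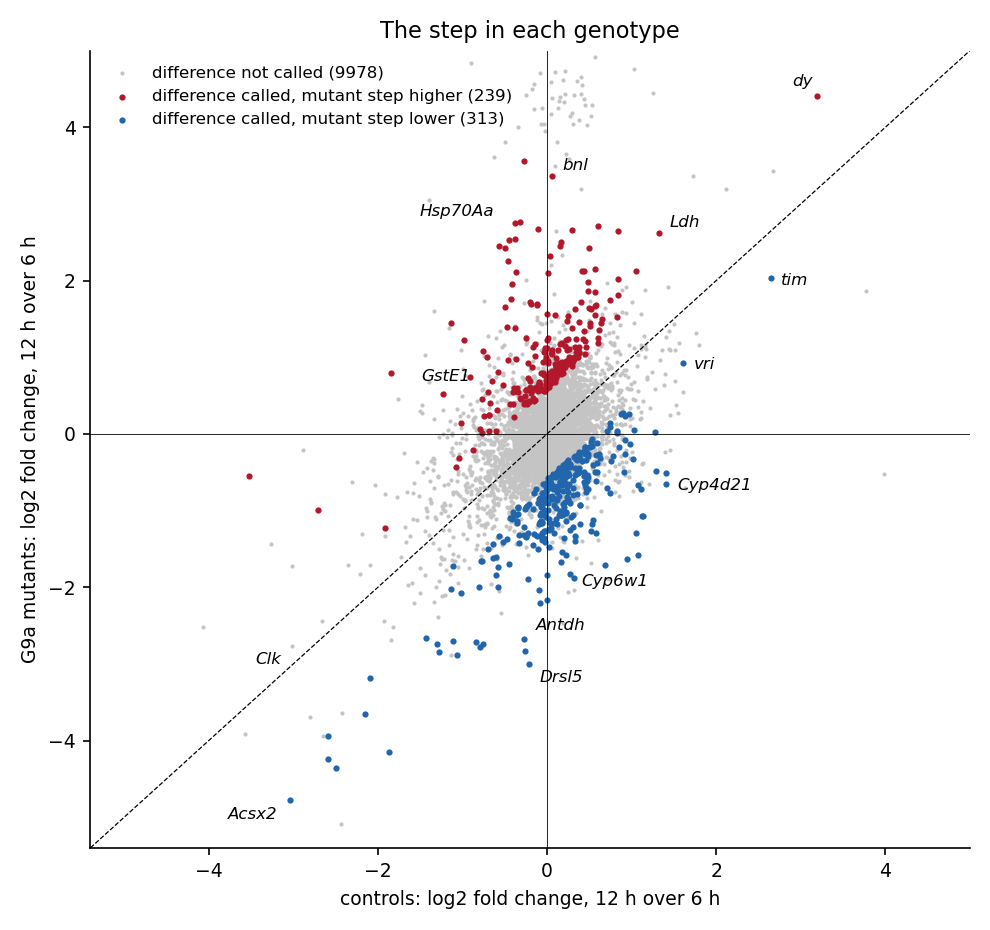
Each point is a tested gene, with its log2 change from 6 h to 12 h in G9a mutants on the vertical axis and in controls on the horizontal axis, and the dashed line marks equal steps. Red genes (239) had a higher and blue genes (313) a lower step in mutants, with bnl, the Hsp70 genes and Ldh above the line and Drsl5, Antdh and tim below it.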

How the data were processed

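RNA was taken from pools of fly heads, made into poly(A) libraries that keep no strand, and sequenced as 30 bp single reads. Per the labels and the study's methods, the authors aligned reads with BWA to BDGP 5, counted them per gene with HTSeq and scaled them with DESeq (versions not given in the sources used here). The deposited table holds these normalized counts, a signal per gene with 1 size factor per library. In all 188184 values (tolerance 0.01) the factor gave back whole reads, between 19275805 and 41393992 per library, so low counts carry counting error. The authors' tables of fold changes and p-values of each later time against 0 h were not used.

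Counts were tested as log2(normalized count + 1) in limma 3.58.1 (R 4.3.3, trended variance), with the means of 6 groups over 12 libraries (6 residual degrees of freedom), for 10530 genes with a mean of at least 10. A permutation of 2 against 2 libraries cannot go below p = 0.333, so limma's p-values stand alone. The difference between genotypes was the interaction in the same fit. On the recovered reads edgeR 4.0.16 called 944 genes in the mutant step and DESeq2 1.42.0 called 870. Other alternatives were pseudocounts, filters, scalings, thinned reads, a replicate block and leaving out each library. Scripts were tested on simulated data.

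Genes named are the 12 largest called changes each way (mean of at least 50 counts in the higher group), the 6 largest differences between genotypes each way, up to 4 called and 2 uncalled members of each list, and members added for their role. The comparison, the members and the lists were chosen with earlier results of these data known. Of 15682 gene IDs 15001 had a symbol. Ensembl release 115 (BDGP 6) served for names and for overlapping genes only, so no coordinates are given. Not every named gene with an overlapping neighbour is marked in the text.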

Additional observations from a re-analysis of the deposited data

Results flagged for a closer look

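The 12 h against 6 h step differed between G9a mutants and controls, by the test of the difference itself, for 552 genes. Among those named, the difference (mutants minus controls, log2) was 3.30 for bnl, 3.13 for Hsp70Ab, 3.09 for Hsp70Aa, 3.03 for Hsp70Bb, 2.98 for Hsp70Ba and 2.92 for Hsp70Bbb. It was -2.78 for Drsl5, -2.65 for Diedel, -2.40 for Antdh, -2.20 for CG40198, -2.16 for GstE4 and -2.13 for Obp28a. The Hsp70 copies share reads and count as 1 observation. No group has 4 or more libraries, so single libraries were not tested for standing apart.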

How the results depend on the processing

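Among the named genes put through the alternatives, no called change in mutants reversed under any of them. Dip-B, Nep7, CG16926 and CG30033 were not put through them, so their calls rest on the main fit alone. Of the 157 genes put through them and called in the mutant step, 133 kept their call in every alternative that holds the fold threshold at 1.5. The other 24 lost it in at least 1 of them. With a fold threshold of 2, 410 genes were called in the mutant step, 229 for the difference between genotypes, 142 in the control step and 747 in mutants between 0 h and 6 h. Without 1 library in turn, counts ranged from 833 to 984 for the mutant step (741 of the 961 genes shared at the least, without 12 h replicate 2), from 410 to 562 for the difference, from 232 (without control 12 h replicate 1) to 354 for the control step, and from 1283 to 1331 between 0 h and 6 h. A fit that leaves 1 library in a group assumes that it varies like the others. Between groups, deviations of same-numbered duplicates had correlations from -0.568 to 0.449 (-0.189 for mutants at 6 h and 12 h), so the numbers were not taken to pair the samples. A replicate block gave 958 calls in the mutant step (946 shared), 548 for the difference, 367 in the control step and 1395 between 0 h and 6 h. Scalings moved the median of all genes by at most 0.03. With the level of RNAs without a poly(A) tail as a covariate, an alternative chosen after seeing the data, 897 genes were called in the mutant step, 492 for the difference and 365 in the control step. Depth limits genes near 10 counts, where a few reads decide a value.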
